A study of Mus musculus with 15 samples.

Results

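The sirtuins are the 7 mammalian relatives of the yeast silencing protein Sir2. Their transcripts were measured on Affymetrix arrays of pooled mouse oocytes, and the members are the probe sets that the platform annotation maps to exactly 1 of the symbols Sirt1 to Sirt7. The rule found 9 of 45037 probe sets outside the controls: 3 for Sirt5 and 1 for each of the other 6 genes. The 13 MII arrays and 2 GV arrays came from B6D2F1 females, each array from a pool of 150 oocytes. Prepubertal females at day 20 (d20) gave oocytes matured in vitro (n = 3). Peripubertal females at day 26 (d26) gave oocytes matured in vitro (n = 3) and in vivo (n = 2). Adult females, 7 to 8 weeks old, gave oocytes matured in vitro (n = 2) and in vivo (n = 3), and immature GV oocytes (n = 2). GV stands for germinal vesicle, the intact nucleus of an oocyte arrested in the first meiotic prophase, and MII for metaphase II, the arrest point of the mature egg. All females had received PMSG, a gonadotropin that stimulates follicle growth, 48 h before collection of GV oocytes or before hCG, the ovulatory stimulus given for the in vivo groups. In vitro maturation ran for 16 h in Gmat medium, and cumulus cells had been removed with hyaluronidase in every group. GV oocytes came from adults only, so the stage comparison was made at that age.

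Sirtuins remove acetyl or other acyl groups from lysines, or transfer ADP-ribose, and consume NAD in doing so, which ties their activity to cell metabolism. Sirt1, Sirt6 and Sirt7 act mainly in the nucleus, Sirt2 mainly in the cytosol, and Sirt3, Sirt4 and Sirt5 in mitochondria. A fully grown oocyte makes almost no new RNA until the embryo forms, so between GV and MII its stored messages are mostly translated, readenylated, deadenylated or degraded. The RNA here was selected on oligo(dT), so a longer poly(A) tail and a greater amount of message cannot be told apart, nor, in a pool, can less RNA per cell and fewer intact cells.

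Values are log2 intensities after quantile normalization, which gives every array the same distribution, and differences are on that log2 scale. A probe set was called when its adjusted p was below 0.05 in limma across all 22519 probe sets with a mean of at least 3.07, the upper 50%. This left 7 probe sets of 6 sirtuin genes, since Sirt2 (mean 2.33) and 1 of the 3 Sirt5 probe sets (mean 1.14) lay under that level, and the lowest one kept was Sirt5 (1428915_at, mean 3.29). Arrays differed in brightness: 9719 and 9842 probe sets exceeded a deposited intensity of 200 on the GV arrays, against 4903 to 6760 on 9 MII arrays and 2637 to 3061 on 4 dim MII arrays. Among the dim ones, d26 in vitro oocytes had 2 (replicates 2 and 3), adult in vivo oocytes 1 (replicate 1) and adult in vitro oocytes 1 (replicate 2). Of 13 oocyte markers, 12 had a probe set and all 12 averaged above the filter level, with Zp3, Gdf9 and Bmp15 at 9.64, 13.27 and 11.63 over the 15 arrays. The summed normalized intensity of 8 leukocyte markers was 186 to 456 on adult in vivo arrays, 147 to 174 on adult in vitro arrays and 71.9 to 77.5 on GV arrays, and that of 5 oviduct markers was 146 to 450, 30.2 to 100.1 and 91.3 to 96.0, taken in the same order; 4 of the 8 and 3 of the 5 averaged above the filter level. For 9 cumulus and granulosa markers, 7 of them above that level, it was 151 to 288, 226 to 227 and 106 to 142, and for the oocyte markers 31705 to 36884, 25689 to 34481 and 58470 to 68913. The part of these differences in the sirtuin results was not tested. The GapdhMur control gave 3' to 5' signal ratios from 2.27 to 82.3, the highest on both d26 in vivo arrays.

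**Figure D1:**
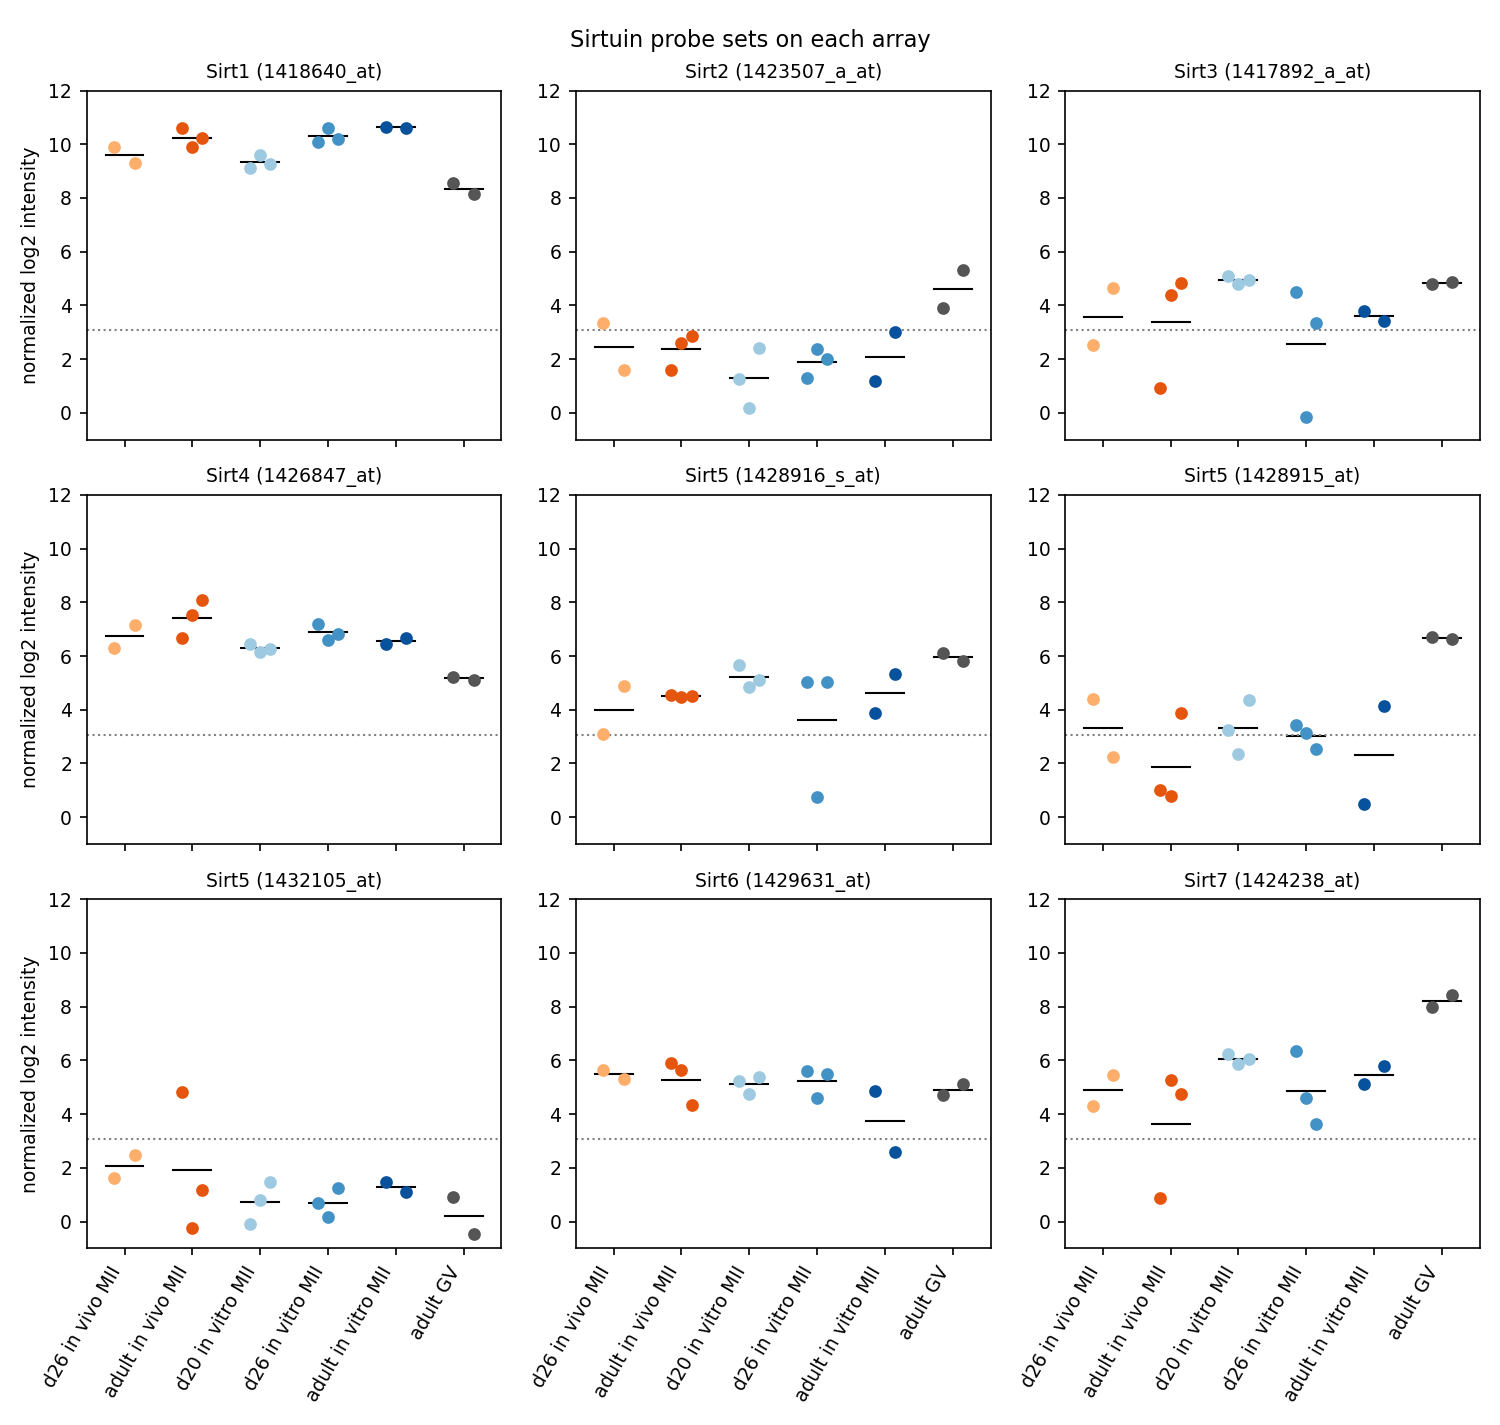
Normalized log2 intensity of each of the 9 sirtuin probe sets on each array. Points are arrays, bars are group means and the dotted line is the filter level of 3.07. Sirt1 and Sirt4 lay higher on all 13 MII arrays than on both GV arrays, and Sirt7, Sirt2 and Sirt5 (1428915_at and 1428916_s_at) lay lower. Of all tested probe sets, 33.8% lacked overlap in this way. In the deposited intensities Sirt1 and Sirt4 overlapped with GV.

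The first pair of comparisons asked how adult oocytes at MII, from either maturation route, differed from those at GV. Sirt1 and Sirt4 rose in both, while Sirt7 fell after maturation in vivo and 1 Sirt5 probe set fell in both. Of the 7 probe sets tested, 2 rose and 2 fell in vivo, where 26.8% of all probe sets were called (15.7% higher and 11.1% lower). In vitro 2 rose and 1 fell, where 27.7% were called (16% higher and 11.7% lower). With calls this frequent across the table, the count says little about sirtuins as a family. Sirt5 (1428915_at), which gave 1 of the 2 falls in vivo and the only fall in vitro, passed the filter only through its GV values. Adult MII and GV arrays did not overlap for 5 of the 7 in vivo and 6 of the 7 in vitro, where 55.3% and 66.6% of all probe sets showed this. Both comparisons share the GV arrays, so their results are not independent of each other.

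Sirt1, the nuclear deacetylase of p53, FOXO factors and histones, gave its highest normalized values after maturation in vitro in adults. As deposited, its highest intensity, 2033, was on an adult in vivo array. Sirt1 (1418640_at) stood at 10.60, 9.91 and 10.24 on the adult in vivo arrays and at 10.64 and 10.62 on the adult in vitro arrays, against 8.56 and 8.14 on the GV arrays. Every adult MII array was above both GV arrays after normalization, while as deposited the groups overlapped. The rise was 1.90 in vivo (SE 0.29, adjusted p = 0.00028), or 3.73-fold, and 2.28 in vitro (SE 0.32, adjusted p = 0.000163), or 4.86-fold. Younger oocytes matured to MII were also above GV: Sirt1 was 9.90 and 9.32 on d26 in vivo arrays, 10.10, 10.62 and 10.19 on d26 in vitro arrays, and 9.12, 9.59 and 9.28 on d20 in vitro arrays.

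Sirt4, a mitochondrial sirtuin known as an ADP-ribosyltransferase and lipoamidase that restrains glutamate dehydrogenase and pyruvate dehydrogenase, moved the same way. Sirt4 (1426847_at) was 6.68, 7.54 and 8.07 on the adult in vivo arrays and 6.45 and 6.65 on the adult in vitro arrays, against 5.23 and 5.11 on the GV arrays. Again no adult MII array reached down to the GV level after normalization. As deposited, adult MII arrays lay on either side of the GV arrays. Sirt4 rose by 2.26 in vivo (SE 0.44, adjusted p = 0.00153) and by 1.38 in vitro (SE 0.49, adjusted p = 0.046). Neither call held as deposited or with median centring (adjusted p = 0.164 in vivo and 0.971 in vitro after centring). The call in vitro was marginal: it ended without a filter (adjusted p = 0.0913) and without either array of the adult in vitro group (0.0857 and 0.158), either GV array (0.145 and 0.19), any d20 array (0.0596 to 0.0641), adult in vivo replicate 2 (0.0562) or d26 in vitro replicate 3 (0.0533). The other 8 MII arrays gave Sirt4 values of 6.14 to 7.20, all above GV.

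Upstream sequence is shown for the pair that rose, Sirt1 and Sirt4, as the 250 bases before the start of transcription in RefSeq (GRCm38.p6), 5' to 3' on the strand of the gene. They lie at chr10:63339036-63339285 and chr5:115484298-115484547, both on the minus strand. Capitals mark E-boxes, spelled CACGTG. They also mark GC boxes, which may overlap each other and are spelled GGGCGG on one strand and thus the reverse complement on the other. A CCAAT box was searched by its 5 named letters, and a TATA box was searched in the spelling TATAAA. Each search covered both strands.
Sirt1: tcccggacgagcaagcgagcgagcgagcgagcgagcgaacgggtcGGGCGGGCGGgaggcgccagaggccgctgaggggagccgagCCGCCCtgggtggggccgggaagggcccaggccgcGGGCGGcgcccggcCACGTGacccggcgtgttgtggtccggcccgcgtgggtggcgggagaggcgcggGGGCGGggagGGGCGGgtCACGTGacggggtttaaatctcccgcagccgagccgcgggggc
Sirt4: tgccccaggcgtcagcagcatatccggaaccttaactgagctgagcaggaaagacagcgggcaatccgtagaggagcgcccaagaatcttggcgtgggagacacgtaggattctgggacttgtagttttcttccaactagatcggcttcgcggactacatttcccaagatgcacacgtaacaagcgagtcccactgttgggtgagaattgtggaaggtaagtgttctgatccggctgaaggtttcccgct
The Sirt1 window held 2 E-boxes and 6 GC boxes, 79.2% G and C and 39 CpG dinucleotides, and the Sirt4 window held none of the 4 motifs, 53.2% G and C and 14 CpG dinucleotides. Across 32851 such windows of all genes, 6.02% held an E-box, 32.7% a GC box, 33.8% a CCAAT box and 12.4% a TATA box. The medians were 52.4% G and C and 6 CpG dinucleotides. These matches describe the letters of the windows, and no measurement here bears on binding or on promoter activity.

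Sirt7, a nucleolar deacetylase that binds RNA polymerase I and ribosomal DNA, was the nuclear sirtuin that fell. Sirt7 (1424238_at) was 0.86, 5.29 and 4.73 on the adult in vivo arrays and 5.11 and 5.79 on the adult in vitro arrays, against 7.99 and 8.42 on the GV arrays. The lowest value, 0.86, came from a dim array, and the others of the adult MII arrays lay close together. Sirt7 fell by 4.58 in vivo (SE 1.04, adjusted p = 0.0042), a size set in part by that array, since the difference was -3.24 without it (adjusted p = 0.00427). In vitro the Sirt7 difference was -2.76 (SE 1.14, adjusted p = 0.0904), which did not pass although the arrays did not overlap. It did pass without the dim adult in vivo array (-2.79, adjusted p = 0.00878). Without all 4 dim arrays the in vitro difference was -3.26, with adult in vitro replicate 1 alone left in that group. On the 8 MII arrays from younger females Sirt7 was 3.65 to 6.33, again below both GV arrays.

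Sirt6, a chromatin-bound deacylase active in DNA repair and telomere maintenance, did not pass in either comparison. Sirt6 (1429631_at) was 5.89, 5.63 and 4.33 on the adult in vivo arrays and 4.84 and 2.61 on the adult in vitro arrays, against 4.72 and 5.11 on the GV arrays. The groups overlapped. The difference was 0.37 in vivo (95% interval -1.07 to 1.80, adjusted p = 0.762) and -1.19 in vitro (95% interval -2.76 to 0.38, adjusted p = 0.267). The low value of 2.61 was again a dim array. Without all dim arrays the in vitro difference was -0.08, with adult in vitro replicate 1 alone left in that group.

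Sirt2, the cytosolic sirtuin known for deacetylating alpha-tubulin, was dim on the MII arrays and, averaged over all 15 arrays, lay under the filter level. Sirt2 (1423507_a_at) was 1.60, 2.62 and 2.87 on the adult in vivo arrays and 1.18 and 3.01 on the adult in vitro arrays, against 3.89 and 5.32 on the GV arrays. Both GV arrays were above all 13 MII arrays, which reached 3.34. Without a filter the Sirt2 difference was -2.25 in vivo (SE 1.08, adjusted p = 0.229) and -2.51 in vitro (SE 1.18, adjusted p = 0.205), and neither passed.

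Sirt3, the main deacetylase of the mitochondrial matrix, was scattered at MII. Sirt3 (1417892_a_at) was 0.94, 4.39 and 4.84 on the adult in vivo arrays and 3.78 and 3.43 on the adult in vitro arrays, against 4.81 and 4.86 on the GV arrays. In vivo the groups overlapped, and in vitro they did not. The differences of -1.44 in vivo (95% interval -4.19 to 1.31, adjusted p = 0.48) and -1.23 in vitro (95% interval -4.24 to 1.79, adjusted p = 0.584) did not pass, with intervals that admit sizeable changes either way. The value of 0.94 came from the dim adult in vivo array, and the dim d26 in vitro replicate 2 gave -0.15.

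Sirt5, a mitochondrial enzyme that removes succinyl, malonyl and glutaryl groups, was the only sirtuin with several probe sets, and they did not behave alike. Sirt5 (1428915_at) was 1.00, 0.77 and 3.88 on the adult in vivo arrays and 0.51 and 4.15 on the adult in vitro arrays, against 6.69 and 6.62 on the GV arrays. The GV arrays stood well clear of all 13 MII arrays, which averaged 2.77, under the filter level, so the probe set was tested only because of its GV values and the size of its change is imprecise. It fell by 4.77 in vivo (SE 1.20, adjusted p = 0.0081) and by 4.33 in vitro (SE 1.32, adjusted p = 0.0232). Without adult in vitro replicate 1 the in vitro difference was -2.52 and did not pass (adjusted p = 0.211), and without either GV array the probe set dropped under the filter.

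Sirt5 (1428916_s_at), whose suffix marks probes shared by several transcripts, was 4.55, 4.48 and 4.51 on the adult in vivo arrays and 3.89 and 5.33 on the adult in vitro arrays, against 6.10 and 5.81 on the GV arrays. All were below GV, by a smaller distance. The differences of -1.44 in vivo (SE 1.04, adjusted p = 0.364) and -1.34 in vitro (SE 1.14, adjusted p = 0.438) did not pass. Without the 4 dim arrays, among them the d26 in vitro replicate 2 at 0.77, they were -1.64 and -2.27. The in vivo difference then passed (adjusted p = 0.0443), while the in vitro one rested on adult in vitro replicate 1 alone. The remaining Sirt5 probe set (1432105_at) averaged 1.14 over all arrays and was not tested. Its differences without a filter, 1.69 in vivo and 1.06 in vitro, had 95% intervals of -0.89 to 4.27 and -1.77 to 3.89.

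**Figure D2:**
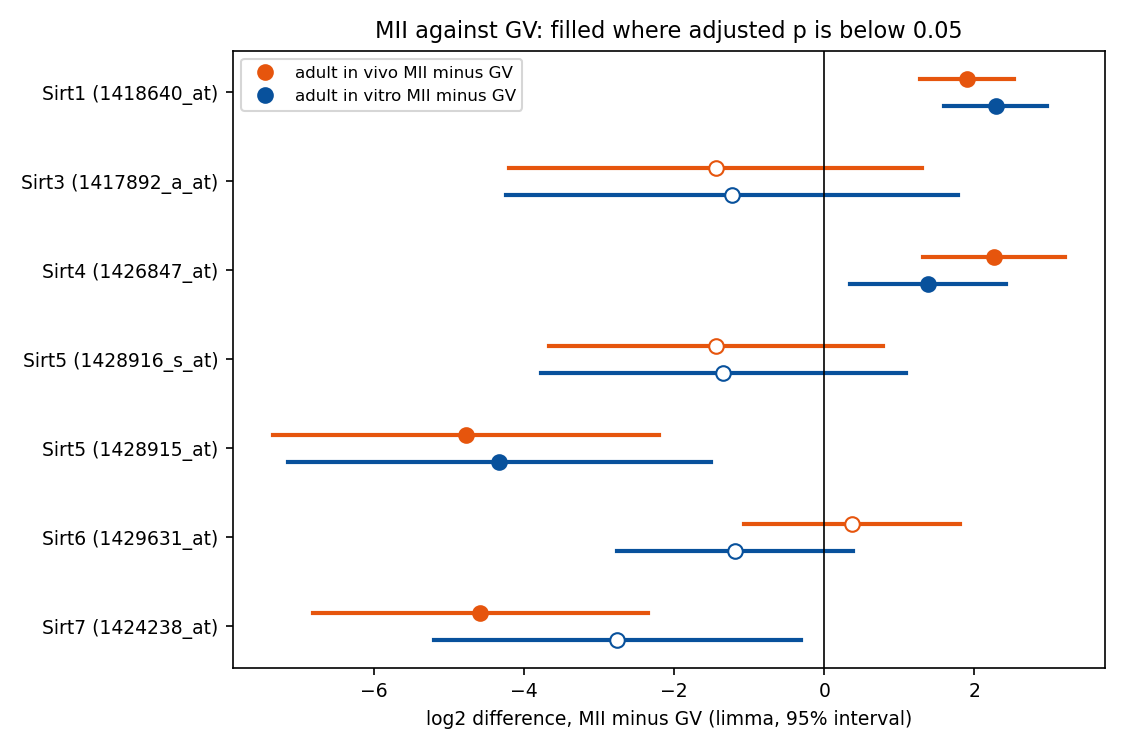
Log2 difference between adult MII and GV oocytes with its 95% interval for the 7 tested sirtuin probe sets, for maturation in vivo (orange) and in vitro (blue). Filled points have an adjusted p below 0.05: Sirt1 and Sirt4 lie right of 0, Sirt5 (1428915_at) left of 0 for both routes, and Sirt7 passes for the in vivo route only, a difference between routes that was itself tested and did not pass. Sirt5 (1428915_at) was tested only because of its GV values, so its fall is a description.

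The calls of Sirt1, Sirt4 and, in vitro, Sirt7 depended on the scaling of the arrays. As deposited, Sirt1 read 689, 1548 and 2033 on adult in vivo arrays and 1464 and 597 on adult in vitro arrays, against 1058 and 806 on GV arrays, so the groups overlapped. The Sirt1 difference was then 0.49 in vivo (adjusted p = 0.745) and 0.02 in vitro (0.987), while the median of all tested probe sets shifted by -0.98 and -1.94. After quantile normalization that median was 0.24 and 0.13. Relative to the median of all probe sets, Sirt1 was higher by 1.66 in vivo and 2.15 in vitro after quantile normalization, and by 1.47 and 1.96 as deposited. With each array centred on its median, Sirt1 still passed (1.26, adjusted p = 0.0177, and 1.43, adjusted p = 0.0133).

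Sirt4 read 36.6, 304 and 428 on adult in vivo arrays and 68.8 and 30.1 on adult in vitro arrays, against 128 and 108 on GV arrays. It did not pass as deposited (0.52 in vivo, adjusted p = 0.839, and -1.37 in vitro, adjusted p = 0.37) or with median centring (1.29, adjusted p = 0.164, and 0.05, adjusted p = 0.971). Sirt7 read 1.15, 60.7 and 33.2 on adult in vivo arrays and 28.02 and 19.0 on adult in vitro arrays, against 782 and 922 on GV arrays. The Sirt7 difference passed in vivo on all 3 scales, with -5.23 after median centring and -6.00 as deposited. In vitro it passed only on the other 2 scales, at -3.79 after median centring (adjusted p = 0.0217) and -5.20 as deposited (adjusted p = 0.0165). Sirt5 (1428915_at), which was tested only because of its GV values and is given here as a description, had differences of -5.32 to -6.73 on those scales. Sirt6 in vitro also passed on those scales (-3.46 as deposited, adjusted p = 0.0218, and -2.04 with median centring, adjusted p = 0.0462). Without adult in vitro replicate 1 the Sirt6 difference was -2.32, resting on the dim replicate 2 alone, and without all dim arrays it was -0.08.

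Across all ages, 6 of the 9 sirtuin probe sets had no overlap between the 13 MII arrays and the 2 GV arrays after normalization, and 5 had none in the deposited intensities. Among the 7 tested these were 5 and 4, where 33.8% and 34.5% of all tested probe sets showed this. Sirt2, both brighter Sirt5 probe sets and Sirt7 were below GV on both scales. Sirt1 and Sirt4 were clear of GV only after normalization, and Sirt3 only as deposited.

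**Figure D3:**
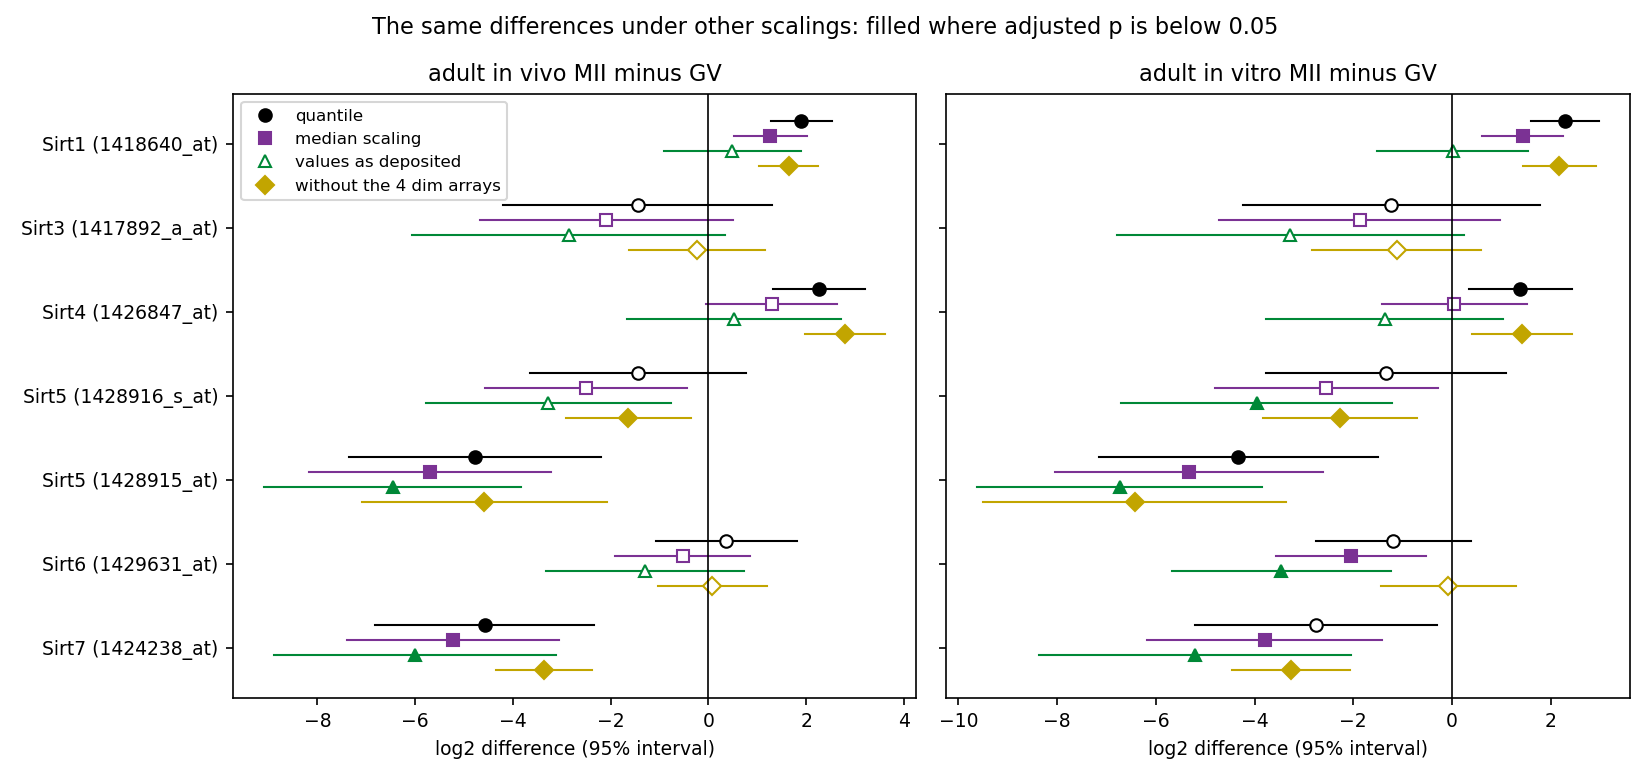
Log2 difference between adult MII and GV oocytes, with 95% intervals, for the 7 tested sirtuin probe sets under quantile normalization, median centring, the values as deposited, and quantile normalization without the 4 dim arrays. Filled symbols have an adjusted p below 0.05. Without the dim arrays the adult in vitro group is replicate 1 alone. Sirt7 and Sirt5 (1428915_at) stay left of 0 in every setting shown, while the rises of Sirt1 and Sirt4 shrink towards or past 0 as deposited. Sirt5 (1428915_at) was tested only because of its GV values.

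In vivo maturation was then compared with in vitro maturation at the same age. None of the 7 sirtuin probe sets passed in limma, in adults, at d26 or in the mean over both ages, where 0.00444%, 0.04% and 0.226% of all probe sets were called, and 1 of 7 had an unadjusted p below 0.05 in each, where 8%, 6.8% and 12.4% of all probe sets did, so such single values are descriptions. In adults that was Sirt6, which averaged 5.28 ± 0.83 over 3 in vivo arrays, against 3.72 ± 1.58 over 2 in vitro arrays (SD), a difference of 1.56 (95% interval 0.12 to 2.99, adjusted p = 0.599) with overlapping arrays, and 0.16 without the dim arrays. Adult arrays of the 2 routes lacked overlap for 2 of the 7, Sirt1 and Sirt4, and for 19.2% of all probe sets. At d26 it was Sirt1, which averaged 9.61 ± 0.41 over 2 in vivo arrays, against 10.30 ± 0.28 over 3 in vitro arrays (SD), a difference of -0.70 (95% interval -1.32 to -0.07, adjusted p = 0.684) with no overlap, which 1 of the 7 and 20% of all probe sets showed. In the mean over both ages the Sirt1 difference was -0.54 (SE 0.21, adjusted p = 0.335). As deposited it had the opposite sign, with 0.47 in adults, 0.54 at d26 and 0.50 in the mean (adjusted p = 0.769, 0.604 and 0.441), so no direction is given.

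Sirt4 in adults averaged 7.43 ± 0.70 over the 3 in vivo arrays, against 6.55 ± 0.14 over the 2 in vitro arrays (SD), which differ by 0.88 (95% interval -0.07 to 1.82, adjusted p = 0.64). At d26 the Sirt4 difference was -0.15 (95% interval -1.09 to 0.80). Sirt7 averaged 3.63 ± 2.41 over the same in vivo arrays, against 5.45 ± 0.49 over the in vitro ones (SD), with -1.82 between them (95% interval -4.05 to 0.41, adjusted p = 0.654), against 0.03 at d26. The test of whether the route difference itself changed between d26 and adults gave 0 called sirtuin probe sets, 0 with an unadjusted p below 0.05 and 0% called over the whole table, and the Sirt7 term was 1.85 (SE 1.48). The intervals are wide enough to include several-fold differences for Sirt3, Sirt5, Sirt6 and Sirt7.

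Age was compared among in vitro matured oocytes of d20, d26 and adult females. The group means of Sirt1 were ordered by age, but no difference passed: 9.33 ± 0.24 at d20 (SD, n = 3), 10.30 ± 0.28 at d26 (SD, n = 3) and 10.63 ± 0.02 in adults (SD, n = 2). The d20 arrays were below all d26 and adult arrays. The d20 minus adult difference was -1.30 (95% interval -1.93 to -0.68, unadjusted p = 0.000518, limma adjusted p = 0.109), with 0.0222% of probe sets called, and 3 of the 7 sirtuin probe sets (Sirt1, Sirt3 and Sirt7) against 41.5% of all without overlap. For d20 minus d26 it was -0.98 (95% interval -1.54 to -0.41, unadjusted p = 0.00221, adjusted p = 0.402), with 0% called, and 3 of the 7 (Sirt1, Sirt3 and Sirt4) against 18.5% of all without overlap. Sirt1 alone had an unadjusted p below 0.05 in each, as did 17.6% and 11.5% of all probe sets. With median centring the 2 Sirt1 differences were -0.75 (limma adjusted p = 0.255) and -0.42 (limma adjusted p = 0.492). In deposited intensities Sirt1 was 867 to 1184 at d20, 434 to 1220 at d26 and 597 to 1464 in adults, so the separation appeared only after normalization. The Sirt1 difference was then 0.11 for d20 minus adult and 0.61 for d20 minus d26, of opposite sign to the normalized ones.

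No other sirtuin passed between ages either, and 0.00444% of all probe sets were called for d26 minus adult. There Sirt6 alone had an unadjusted p below 0.05, as did 7.34% of all probe sets (1.50, 95% interval 0.07 to 2.94, adjusted p = 0.677), with overlapping arrays and a difference of 0.85 without the dim arrays, and 1 of the 7, Sirt1, lacked overlap, against 16.5% of all probe sets. Sirt7 was 6.05 ± 0.18 at d20 (SD, n = 3), 4.86 ± 1.36 at d26 (SD, n = 3) and 5.45 ± 0.49 in adults (SD, n = 2). Sirt3 was 4.96 ± 0.15 at d20 (SD, n = 3), 2.57 ± 2.42 at d26 (SD, n = 3) and 3.61 ± 0.25 in adults (SD, n = 2). For both genes the d20 arrays were tight, and the 2 lowest d26 values were those of the dim arrays. The Sirt3 difference between d20 and d26 was 2.40 (95% interval -0.06 to 4.85, adjusted p = 0.441). Without the dim arrays it was 0.50, with d26 in vitro replicate 1 alone left in that group.

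Ordered over all 6 groups by normalized mean, Sirt1 ran from adult in vitro (10.63) through d26 in vitro (10.30), adult in vivo (10.25), d26 in vivo (9.61) and d20 in vitro (9.33) to GV (8.35). The d26 in vitro and adult in vivo arrays overlapped, as did the d26 in vivo and d20 arrays. Sirt4 ran from adult in vivo (7.43) through d26 in vitro (6.88), d26 in vivo (6.73), adult in vitro (6.55) and d20 in vitro (6.29) to GV (5.17), and only the last step lacked overlap. Sirt7 ran the other way, from GV (8.21) through d20 in vitro (6.05), adult in vitro (5.45), d26 in vivo (4.88) and d26 in vitro (4.86) to adult in vivo (3.63). All Sirt7 neighbours after the second step overlapped. As deposited these orders differed. The Sirt1 median intensity was highest in adult in vivo oocytes (1548) and lowest in d26 in vitro oocytes (552), below GV (932). The Sirt4 median was also lowest in d26 in vitro oocytes (36.7), below GV (118). For Sirt7 GV stayed highest (852), and d26 in vitro was lowest (11.1).

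Genes around the sirtuins were read from 5 lists. Where 18.3% of all 12028 genes tested rose and 12.3% fell in vivo, and 18.4% and 12.9% in vitro, 9 of 16 NAD supply genes were tested and 1 rose and 0 fell in vivo, with a median of 0.23 against 0.26 for all genes. In vitro 1 rose and 1 fell. Without GV replicate 1 or 2 or adult in vitro replicate 2 both counts were 0, without adult in vitro replicate 1 the rise was lost, and without d26 in vitro replicate 3 or any 1 of the d26 in vivo and d20 arrays the fall was lost. Nadk, which phosphorylates NAD to NADP, rose by 1.99 in vivo (adjusted p = 0.00161) and by 1.35 in vitro (adjusted p = 0.0295). Nampt, which makes the NAD precursor NMN from nicotinamide, did not pass in vivo (0.58, adjusted p = 0.505). Among 7 tested NAD consumers outside the family 2 rose and 1 fell for each route, with Tnks2 and Tnks, the tankyrases, higher in vivo (1.51 and 1.50) and the DNA damage enzyme Parp2 lower (-2.32, adjusted p = 0.0472). Without GV replicate 2 the counts were 0 and 0 for both routes, with Tnks2 at 1.03 in vivo (adjusted p = 0.275), and without GV replicate 1 they were 1 and 0. Without adult in vivo replicate 1, 2 or 3, 1, 1 and 0 rose in vivo, and Parp2 in vivo kept its call in 6 of the 15 fits that leave out an array and lost it without a filter (adjusted p = 0.0859). Parp1 did not pass (-1.12, adjusted p = 0.15).

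Of 11 tested regulators of Sirt1 and AMPK, 2 rose and 1 fell for each route. Rps19bp1, which encodes AROS, an activator of SIRT1 in human cells, fell by 1.66 in vivo (adjusted p = 0.00631) and by 1.39 in vitro (adjusted p = 0.0279). Elavl1, encoding HuR, an RNA-binding protein that binds SIRT1 mRNA in human cells, rose by 1.56 in vivo (adjusted p = 0.00859), and Prkab1, an AMPK subunit, by 1.48 (adjusted p = 0.000959). Without GV replicate 2, 1 rose and 0 fell for each route. Ccar2, an inhibitor of SIRT1, did not pass (-0.26, adjusted p = 0.918). Among 17 tested nuclear and cytosolic substrates and partners 4 rose and 2 fell for each route, against the same shares of all genes. Neither count is read as a result about its list. Over the alternatives other than the omission of each array in turn, the rises of these substrates and partners in vivo ran from 0 to 8. The acetyltransferase Ep300 rose by 1.76 in vivo (adjusted p = 0.000144) and Cdc20, the anaphase-promoting complex activator, by 1.26 (adjusted p = 0.000701). Kat8, the acetyltransferase of histone H4, fell by 5.75 (adjusted p = 0.000317) and the Ku protein Xrcc6 by 4.38 (adjusted p = 0.000723).

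Mitochondrial substrates held more falls than rises: of 20 tested, 1 rose and 7 fell in vivo, and 3 rose and 8 fell in vitro, with medians of 0.23 and -0.11 against 0.26 and 0.13 for all genes. These counts rest on both GV arrays: without GV replicate 1, 0 rose and 4 fell in vivo and 1 rose and 4 fell in vitro, and without GV replicate 2 the falls were 3 for each route. Leaving out either adult in vitro array gave 5 falls in vitro, leaving out d26 in vitro replicate 2 gave 5 rises there, and the rises in vivo ran from 0 to 6 over all alternatives, 6 with array weights. Ndufa9, a complex I subunit, fell by 5.75 in vivo (adjusted p = 8.52e-06) and the ATP synthase subunit Atp5a1 by 1.61 (adjusted p = 0.000192). The protease Lonp1 fell by 3.39 (adjusted p = 0.00307), and the difference of Sdhb, a complex II subunit, was -3.05 (adjusted p = 0.00578). Sdha, another complex II subunit, did not pass (0.44 in vivo, adjusted p = 0.257, and 0.008 in vitro, adjusted p = 0.987). Sod2, the matrix superoxide dismutase and a Sirt3 substrate, rose by 0.94 in vivo (adjusted p = 0.035). It was the only rise called there, so it had no call in the alternatives where that count was 0. That respiratory chain genes were lower at MII in these arrays was known when the list was drawn up, so it adds no independent evidence. All 8 falls named in these lists passed on the deposited scale and with median centring, but only 5 kept their call for each route without GV replicate 2, 5 in vitro without adult in vitro replicate 2, and 7 in vivo and 6 in vitro without a filter. Of the 7 genes named as rising by the smallest p-values, 0 passed as deposited, where 3 in vivo and 6 in vitro had differences below 0, and 2 in vivo and 1 in vitro passed with median centring.

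**Figure D4:**
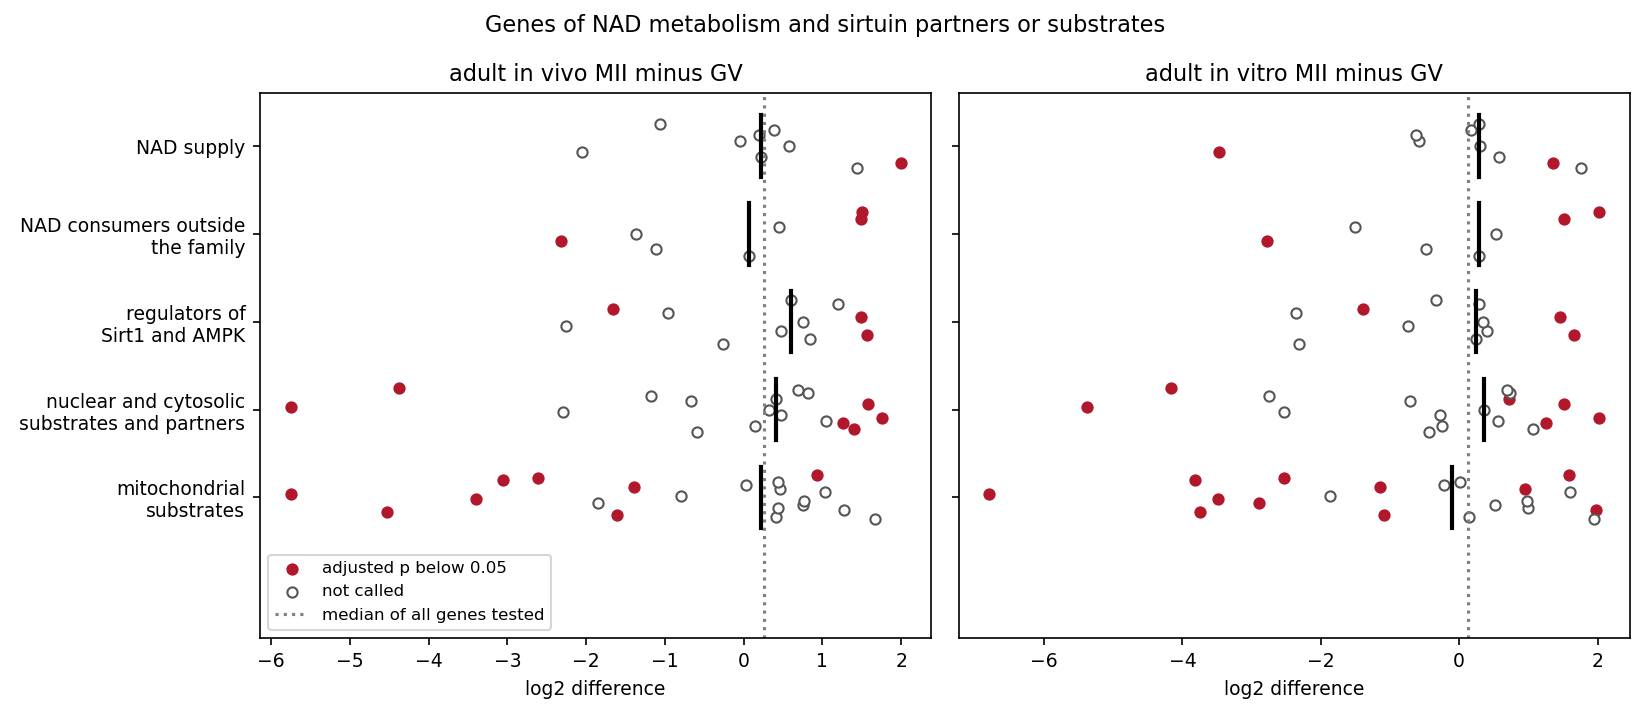
Log2 difference between adult MII and GV oocytes for the tested genes of 5 lists around the sirtuins, maturation in vivo on the left and in vitro on the right. Red points have an adjusted p below 0.05, black bars are list medians and the dotted line is the median of all genes tested, 0.26 in vivo and 0.13 in vitro. The mitochondrial substrates show 7 falls and 1 rise in vivo and 8 falls and 3 rises in vitro.

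For each tested sirtuin, represented by its brightest probe set, the 2 genes with the most similar profile were taken by Pearson correlation over the 15 arrays, among 12028 genes. The points share arrays and their scaling, and the correlations are descriptions. Sirt1 was closest to Sclt1 (0.98) and Prrg1 (0.97), which rose by 2.04 and 2.22 in vivo. Sirt4 was closest to Helz (0.92) and 1190005I06Rik (0.91), higher by 1.95 and 1.63. Sirt7 was closest to Rwdd2b (0.97) and Madd (0.94), which fell by 1.64 and 2.72. Sirt3 followed Ints4 and Polr3f (both 0.95), Sirt5 followed Tmem106c and Cnot9 (both 0.92), and Sirt6 followed Rhof and Tmem86a (both 0.91).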

How the data were processed

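Oligo(dT)-selected RNA from 15 oocyte pools was amplified over a pair of cycles and hybridized to Affymetrix arrays, per the labels' protocols. The authors deposited linear probe set intensities for 45101 probe sets, and per the submitters' processing notes the software was MAS5. The scaling target is not given in the sources used here, and detection calls were not used here. Array medians ran from 5.09 to 25.3.

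From these, 64 control probe sets were removed, log2 values were quantile normalized, and limma 3.58.1 (R 4.3.3) was fitted with 1 coefficient per group, 9 residual degrees of freedom and an intensity trend, with Benjamini-Hochberg adjustment over 22519 probe sets per comparison. All 9 comparisons used this fit, which was tested on simulated data. Symbols were updated by gene identifier (GRCm38.p6, names only): 34945 probe sets had 1 symbol, 932 several and 9160 none. No array duplicated another (at most 0.00222% identical values in 105 pairs). Nothing states that replicate pools were from different animals, so p-values reflect only the spread among the pools, which may be technical, and the number of arrays limits the precision. Members, lists and alternatives were chosen with earlier results of these data known. Named genes are all sirtuin probe sets, up to 4 genes per list with the smallest adjusted p in adult in vivo MII against GV, the 2 nearest profiles per sirtuin and the oocyte markers. Nampt, Parp1, Ccar2, Sod2 and Sdha were added after their values were seen.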

Additional observations from a re-analysis of the deposited data

How the results depend on the processing

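The alternatives were the values as deposited, median centring, no filter, the upper 30% of probe sets, a pseudocount of 3.04 before log2, no intensity trend, array weights, omission of the 4 dim arrays and omission of each array in turn. The number of sirtuin probe sets called was 4 in adult in vivo MII against GV and became 2 as deposited, and was 3 to 4 with an array left out. In adult in vitro MII against GV it was 3, became 5 without the dim arrays, and ran from 1 to 4 with an array left out, 1 being the count without GV replicate 1 or 2. The other 7 comparisons stayed at 0 under every alternative. Calls over the whole table moved too, so these counts are not results about sirtuins. As deposited, 23 of all tested probe sets rose and 3481 fell in vivo, against 3542 and 2495 in the main fit. In vitro 11 rose and 6224 fell as deposited, against 3607 and 2641. Without the dim arrays adult in vitro oocytes kept replicate 1 alone. Without a GV or adult in vitro array, only 1 array of that group was left. Calls in such fits rest on the spread of other groups. As deposited, several differences that were positive turned negative: Sirt4 in vitro (-1.37), Tnks2 in vivo and in vitro (-0.17 and -0.57), Tnks (-0.052 and -0.94), Elavl1 (-0.39 and -1.23), and in vitro Nadk (-1.01), Ep300 (-0.40) and Prkab1 (-0.27), with adjusted p from 0.336 to 0.987, and the cause was not tested. Sirt4 in vitro also lost its call without a trend (adjusted p = 0.0512). Sirt7 in vitro gained a call with the pseudocount (adjusted p = 0.0321) and with array weights (0.0262), and Sirt5 (1428916_s_at) in vivo with array weights (0.0355). Sirt5 (1428916_s_at) in vitro gained one as deposited (-3.96, adjusted p = 0.0317). Without adult in vitro replicate 1 the Sirt6 difference in vitro was -2.32, with only the dim replicate 2 left in that group. Each difference called in any fit was set against its main result once per alternative. Direction and call status were kept in 216 of 247 such settings for sirtuins and 614 of 686 for named list genes. Differences called in neither fit count as kept, and fits in which a probe set lay under the filter are left out. No paired analysis was possible because the replicate numbers were given in accession order and link no arrays. Low signal limits Sirt2 and the Sirt5 probe sets 1428915_at and 1432105_at, whose MII means lay under the filter level, and Sirt3, whose MII mean of 3.63 was close to it.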
